A study of Mus musculus with 6 samples.

Results

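Potassium channel genes were examined in the gastrocnemius, a mixed calf muscle, of young and aged mice. The young group was 3 male mice of 13 weeks and the aged group 3 male mice of 26 months. The strain was C57BL/6J, and the labels name no genetic change or treatment. One single-colour Agilent array, on which labelled RNA binds to short gene-specific probes, was hybridised per mouse. A gene was included when its symbol begins with Kcn, the prefix for potassium channel subunits and for some proteins and noncoding RNAs named after them. This gave 98 genes with 142 probes, out of 36704 genes or unnamed transcripts on the 55669 probes kept.

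Potassium channels let potassium leave or enter a cell along its electrochemical gradient, and they set how easily a muscle fibre fires. Voltage-gated channels open on depolarisation and end the action potential. Inward rectifiers hold the resting potential and, in fibres, carry part of the potassium flux in the transverse tubules. Calcium-activated channels open when calcium rises inside the cell, tandem-pore channels carry background leak currents, and accessory subunits change the gating or trafficking of the pore-forming ones. Small-conductance calcium-activated channels are known to appear in muscle fibres that have lost their nerve. Since whole muscle was used, fewer cells of a type and less RNA per cell cannot be told apart behind a lower level of a gene.

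All 5 muscle fibre markers, including Acta1, Ckm and Ryr1, were well above background on the 6 arrays, which fits the labelled tissue. Between 48.7% and 53.8% of probes per array were well above background, a flag the scanner software sets for each spot, and no probe was saturated. Aged 1 had the most such probes and the brightest negative control spots, with a mean of 61.3 intensity units against 51.9 to 55.1 on the other 5 arrays. The slide held the 3 young mice and 1 aged mouse in its first row and 2 aged mice in its second row. Values are log2 intensities relative to the 75th percentile of each array, so a value of 0 is the level that 75% of probes do not exceed, and a difference of 1 is a doubling. Probes bind their targets with different strength, so levels are compared between mice and never between genes.

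Of the 98 genes, 49 had a probe well above background on 3 or more arrays and were tested with limma. The p-values were adjusted by Benjamini-Hochberg over the 20895 genes that passed this filter. Of the 49, only Kcnd3 passed the adjusted threshold of 0.05. It rose, as did 0.196% of all genes tested, no member fell, as 0.0574% of all genes did, and 0.254% of all genes passed in either direction. At an unadjusted p under 0.05, 6 members were higher in aged muscle, against 6.06% of all genes tested, and 8 were lower, against 8.38%. That is 28.6% of the 49 members in either direction, beside 14.4% of all genes. The 6 higher genes were Kcnd3, Kcnk5, Kcnmb4, Kcne1l, Kcnn3 and Kcnq5, and the 8 lower genes were Kcng4, Kcna1, Kcna5, Kcnd1, Kcnn2, Kcnrg, Kcnk6 and Kcnip3. The probes that stood for Kcnd3 and Kcnmb4 were well above background on aged arrays only, so they could enter the test only by being bright in that group. Among the 36 members well above background on all 6 arrays, 2 were higher and 9 lower at an unadjusted p under 0.05, against 5.72% and 9.01% of all 18546 such genes. With 1 mouse left out, 5 to 7 members were higher at that unadjusted p, against 4.32% to 7.36% of all genes, and 3 to 11 were lower, against 4.53% to 10.7%. The fewest lower members, 3, came without young 1, where 6.13% of all genes were lower, and the most, 11, without aged 1. The median log2 difference, aged minus young, was -0.14 over the 49 members and -0.06 over all genes, and the mean was lower in aged muscle for 33 members (67.3%), as for 56.9% of all genes. With 3 mice per group the number of arrays limits the precision, and an exact two-sided permutation test of 1 gene could not give a p below 0.1.

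**Figure D1:**
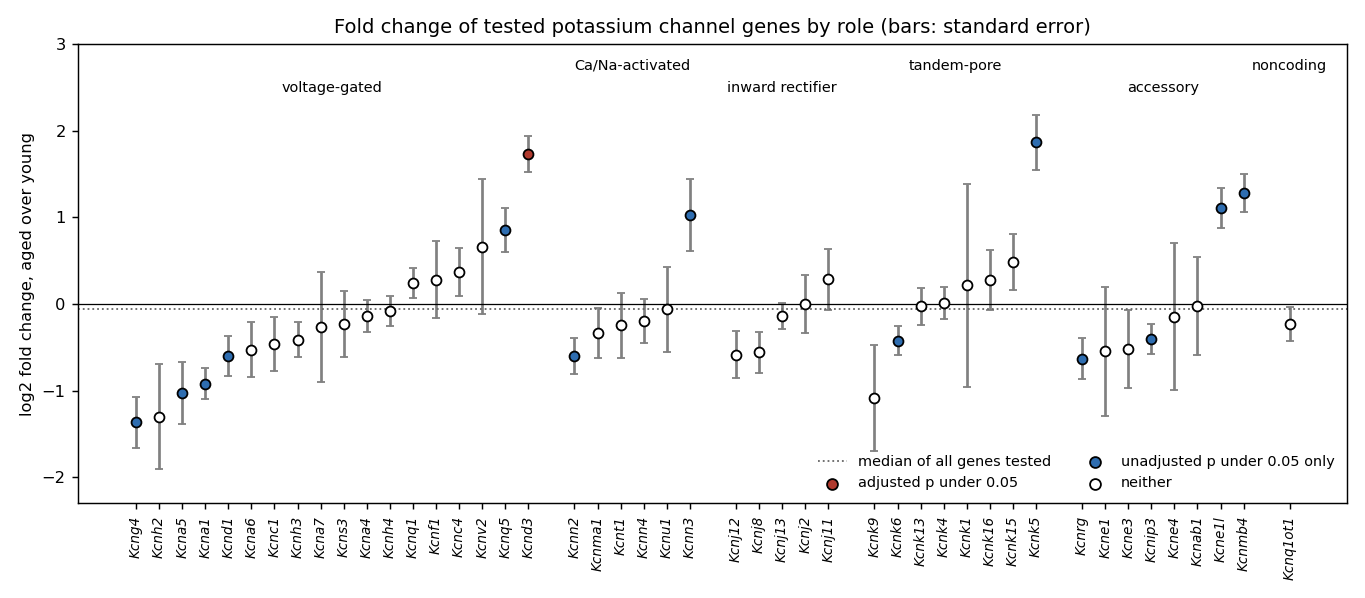
Difference in log2 relative intensity, aged minus young, on the vertical axis for 46 of the 49 potassium channel genes tested, grouped by role along the horizontal axis, with bars of 1 SE from limma (n = 3 mice per group) and a dotted line at the median of all genes. Points of 31 genes lie below 0, while Kcnk5 (1.87), Kcnd3 (1.73) and Kcnmb4 (1.28) lie at the top.

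The sequences before the start of Kcnd3, Kcnk5 and Kcng4 are shown because these 3 genes had the largest fitted differences among members with an entry in the promoter table used here. Each window is the 250 bases before the transcription start in RefSeq on GRCm38.p6, written 5′ to 3′ on the gene's strand. Capitals mark an E-box (CANNTG, the motif of the myogenic basic helix-loop-helix factors), searched on both strands, which give the same matches because the pattern is its own reverse complement. The windows lie at chr3:105451640-105451889 on the plus strand for Kcnd3, at chr14:20181783-20182032 on the minus strand for Kcnk5 and at chr8:119635681-119635930 on the minus strand for Kcng4.
Kcnd3: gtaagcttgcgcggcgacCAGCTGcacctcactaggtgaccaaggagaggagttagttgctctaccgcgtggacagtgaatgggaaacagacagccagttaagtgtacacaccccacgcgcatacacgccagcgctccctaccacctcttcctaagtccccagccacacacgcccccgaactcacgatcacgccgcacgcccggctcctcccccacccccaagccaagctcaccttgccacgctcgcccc
Kcnk5: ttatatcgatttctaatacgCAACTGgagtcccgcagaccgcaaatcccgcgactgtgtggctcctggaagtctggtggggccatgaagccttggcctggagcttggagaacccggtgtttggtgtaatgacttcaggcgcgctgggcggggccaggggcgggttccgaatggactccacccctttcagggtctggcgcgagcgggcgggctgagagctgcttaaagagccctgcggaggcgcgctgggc
Kcng4: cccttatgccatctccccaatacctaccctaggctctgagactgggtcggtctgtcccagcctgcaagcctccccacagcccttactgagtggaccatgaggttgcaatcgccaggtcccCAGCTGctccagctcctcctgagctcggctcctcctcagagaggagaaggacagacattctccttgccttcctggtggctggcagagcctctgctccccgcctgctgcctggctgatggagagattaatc
Each window held 1 E-box, which began 232 bases before the start in Kcnd3, 230 in Kcnk5 and 130 in Kcng4. The E-box read CAGCTG in Kcnd3 and Kcng4, which differed in opposite directions, and CAACTG in Kcnk5. An E-box stood in 66.2% of all 32851 windows of the table and the CAGCTG form in 13.0%. By gene, 50 of the 72 members in the table had an E-box, or 69.4%, against 69.3% of all genes, and 17 of the 72 had CAGCTG, or 23.6%, against 14.7%. TATAAA, the TATA-box letters, searched on both strands, stood in the windows of 3 of the 72 members, or 4.17%, against 14.3% of all genes.

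Among the voltage-gated alpha subunits, which form the pore, 21 of 40 genes were tested. Their means were higher in aged muscle for 7 and lower for 14, with a median difference of -0.14. At an unadjusted p under 0.05, 2 were higher, against 6.06% of all genes tested, and 4 lower, against 8.38%. Only Kcnd3, whose probe passed the filter through the aged arrays alone, passed the adjusted threshold.

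Kcnd3 (NM_001039347) encodes the pore of an A-type channel, which opens briefly on depolarisation and then inactivates. Its log2 relative intensity was -4.16, -4.20 and -4.05 in young 1 to 3, and -2.02, -2.62 and -2.57 in aged 1 to 3. The groups did not overlap, and the probe was well above background on the 3 aged arrays and on none of the young. The fitted difference was 1.73 (SE 0.21, limma adjusted p = 0.0376). Because the young level is only a bound, the aged mean of this probe was at least 2.98-fold higher. Each young array was given the greater of the dimmest detected signal and the probe's own. That bound compares the mean of the aged arrays with the mean of those young levels, as do the other bounds given here. Such a bound does not allow for the spread between mice. The call held in 7 of 16 alternatives, 1 of which compares a single aged mouse with the young ones, with an adjusted p of 0.0282 to 0.299, and the difference was 0.38 with a normexp background correction, which adds an offset that compresses dim signals. A second Kcnd3 probe was not well above background on any array, and the antisense transcript Kcnd3os was not either.

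Kcnd1, which encodes a pore of the same A-type family, was lower in aged muscle. Its levels were -0.12, -0.15 and -0.03 in the young and -0.25, -0.81 and -1.05 in the aged mice. All aged values were lower, but aged 1 lay close to the young mice. The difference was -0.60 (SE 0.23, limma adjusted p = 0.316). Kcnd2 was not above background on any array.

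Kcnq5, a subunit of the slowly activating M-type channels, had levels of -0.35, -0.79 and -1.05 in young and 0.20, -0.25 and 0.42 in aged mice. Every aged mouse was above every young one, though young 1 and aged 2 were close. The difference was 0.85, or 1.81-fold (SE 0.26, limma adjusted p = 0.232). Kcnq1, of the same family, differed by 0.24 with overlapping groups.

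Kcng4 encodes a silent subunit that forms no channel alone and modifies other voltage-gated channels. It was even in the young mice, at 0.83, 0.83 and 0.98, and lower in the aged mice, at -1.13, -0.03 and -0.29. No aged mouse reached the young range, and the aged level was 0.388-fold the young level. The difference of -1.36 (SE 0.29) did not pass the adjusted threshold (limma adjusted p = 0.145).

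In the Kcna family of delayed rectifiers and related channels, 5 of 8 genes were tested, and each tested mean was lower in aged muscle. Kcna1, known from myelinated axons as well as muscle, read -0.26, -0.14 and -0.29 in young and -0.90, -1.19 and -1.36 in aged mice. Each aged mouse was well below the young ones, and the aged level was 0.528-fold the young level (difference -0.92, SE 0.18, limma adjusted p = 0.127). Kcna5, a channel of heart and vascular smooth muscle, read -0.05, 0.19 and -0.88 in young and -0.75, -1.36 and -1.71 in aged mice. Young 3 lay within the aged range, and the difference was -1.03 (SE 0.36, limma adjusted p = 0.285). A second Kcna5 probe differed by -0.50. Kcna7, a channel known mainly from muscle, had 2 probes that passed. The brighter one differed by -0.26 with overlapping groups, while the dimmer one read 0.73, 1.12 and 1.17 in young and 0.61, 0.13 and 0.15 in aged mice, a difference of -0.71 with no overlap. Kcna4, an A-type member, differed by -0.14, and Kcna2 was well above background on 1 aged array alone.

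**Figure D2:**
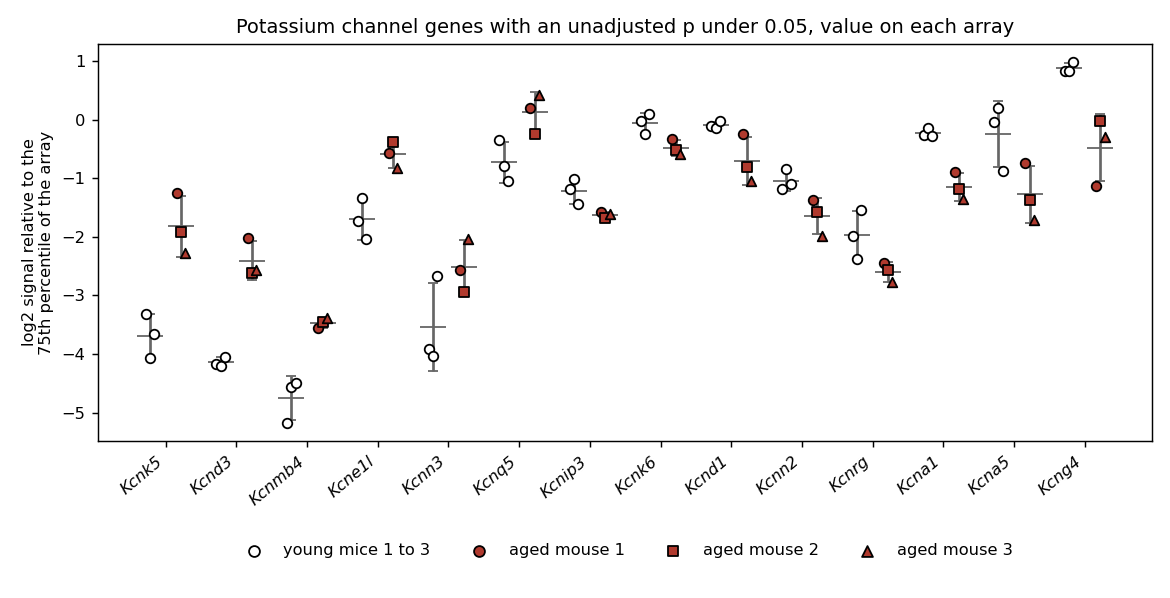
Log2 intensity relative to the 75th percentile of each array for the members named at an unadjusted p under 0.05, 1 point per mouse (3 young, 3 aged), with a horizontal line at each group mean and bars of 1 SD. Kcnd3, Kcnk5 and Kcnmb4 are dim in the young mice and separate from the aged mice, while Kcng4 and Kcna1 are tightly grouped in the young mice and lower in the aged.

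The Kcnc family forms fast delayed rectifiers. Kcnc1 had 3 probes that passed, with differences of -0.46, -0.63 and -0.69, and in the latter 2 the groups did not overlap. The brightest, which stood for the gene, had a limma adjusted p of 0.533. Kcnc4 differed by 0.37 with a limma adjusted p of 0.564.

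Of the calcium- and sodium-activated channels, 6 of 8 genes were tested, 1 with a higher mean in aged muscle and 5 with a lower one, with a median difference of -0.22. The 3 tested small- and intermediate-conductance genes of the Kcnn family did not share a direction. Kcnn3, the small-conductance subunit known from denervated fibres, read -3.91, -4.04 and -2.67 in young and -2.57, -2.95 and -2.03 in aged mice. Young 3 lay within the aged range, and the probe was well above background on 2 young and 3 aged arrays. The difference was 1.02 (SE 0.42, limma adjusted p = 0.335), and it was 0.32 with the normexp correction.

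Kcnn2, the other small-conductance gene tested, read -1.18, -0.85 and -1.11 in young and -1.38, -1.58 and -1.98 in aged mice. Every aged mouse was below every young one. The aged level was 0.658-fold the young level (difference -0.60, SE 0.21, limma adjusted p = 0.285). Kcnn4, the intermediate-conductance gene, differed by -0.20 with overlapping groups. Kcnn1 was well above background on 1 aged array alone and was not tested.

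Kcnma1 encodes the large-conductance BK channel, which opens on calcium and voltage together. Its brightest probe differed by -0.34 with overlapping groups (limma adjusted p = 0.618). The other 3 probes that passed differed by -0.19, 0.14 and 0.77, so they did not agree on a direction, and the last of these was dim in young 3 alone, at -2.66 against -0.10 and -0.11 in the other young mice. The probes carry different transcript accessions.

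Among the inward rectifiers, 5 of 15 genes were tested, and none reached an unadjusted p under 0.05, though Kcnj8, Kcnj11 or Kcnj12 did in some alternatives. Of the 5, 4 had a lower mean in aged muscle. Kcnj8, the pore of the ATP-sensitive channel of vascular smooth muscle, read 0.53, 0.50 and 1.02 in young and 0.41, 0.21 and -0.24 in aged mice. Young and aged mice did not overlap, though aged 1 was close to young 2, and the difference was -0.56 (SE 0.24, limma adjusted p = 0.354). Kcnj11, the pore of the ATP-sensitive channel of the fibre, read 3.24, 2.49 and 1.80 in young and 2.80, 2.88 and 2.71 in aged mice. The young mice spread over more than the aged range, and the 2 probes of the gene differed by 0.28 and -0.34.

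The classical inward rectifiers of muscle, Kcnj2 and Kcnj12, did not pass either. Kcnj12 read 4.86, 4.37 and 4.34 in young and 3.51, 3.92 and 4.39 in aged mice. Aged 3 lay within the young range, and the difference was -0.59 (SE 0.27, limma adjusted p = 0.383). Kcnj2 differed by -0.01 (SE 0.33, limma adjusted p = 0.995). By the probe that stood for it, Kcnj13 was lower in each aged mouse by a small margin, with a difference of -0.14, while its second probe differed by -0.13 with overlapping groups.

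Of the 14 tandem-pore channel genes, 8 were tested, 5 of them with a higher mean in aged muscle and 3 with a lower one. The median difference was 0.11, but -0.03 with 4 higher and 4 lower when arrays were scaled to the median instead. Kcnk5, an acid-sensitive leak channel best known from kidney, had the largest fitted difference of the 49 members, although that of Kcnd3 rests on young levels below background and has no exact rank. It read -3.32, -4.07 and -3.67 in young and -1.25, -1.92 and -2.28 in aged mice. Each aged mouse exceeded the young ones, and the measured levels differed by 3.65-fold (difference 1.87, SE 0.32, limma adjusted p = 0.0960). The probe was well above background on 3 aged but only 2 young arrays, with young 2 below the dimmest detected signal of its array, so the fold is not exact. The difference was 0.71 with the normexp correction.

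Kcnk6 read -0.02, -0.24 and 0.09 in young and -0.33, -0.51 and -0.60 in aged mice. The groups did not overlap, and the difference was -0.42 (SE 0.17, limma adjusted p = 0.327). Kcnk1 varied most within groups, from -2.81 to 0.15 in young and from -3.32 to 1.01 in aged mice, so no difference could be seen beyond that spread. Kcnk9, a dim leak channel gene, differed by -1.08 with overlapping groups, well above background on 2 young and 1 aged arrays. The remaining 4 tested genes, Kcnk4, Kcnk13, Kcnk15 and Kcnk16, overlapped between groups.

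Of the accessory subunits and interacting proteins, 8 of 17 genes were tested, 2 with a higher mean in aged muscle and 6 with a lower one, with a median difference of -0.28. Kcnmb4, a beta subunit of the BK channel, read -5.18, -4.56 and -4.49 in young and -3.55, -3.46 and -3.38 in aged mice. The groups did not overlap, and the probe was well above background on the 3 aged arrays only. The aged mean of this probe was at least 1.44-fold higher, without allowance for the spread between mice. The fitted difference was 1.28 (SE 0.22, limma adjusted p = 0.0984), and it was 0.19 under the normexp correction. A second Kcnmb4 probe, well above background on 1 young array, went the other way, with -4.00, -4.48 and -3.42 in young and -4.85, -5.86 and -4.58 in aged mice. Its groups did not overlap either, so the bound is given for the first probe alone.

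Kcne1l, now also called Kcne5, encodes a small single-pass subunit that modifies Kcnq1 channels. It read -1.73, -1.33 and -2.03 in young and -0.56, -0.39 and -0.83 in aged mice. Every aged mouse was above every young one, and the aged level was 2.15-fold the young level (difference 1.11, SE 0.23, limma adjusted p = 0.142). It was 0.68 with the normexp correction, and a second probe that passed differed by 0.03. Kcne3, the subunit known to join Kcnc4 in muscle, differed by -0.52 with overlapping groups, well above background on 2 young and 2 aged arrays.

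Kcnrg, a protein that regulates potassium channel assembly, read -1.98, -2.37 and -1.55 in young and -2.45, -2.57 and -2.78 in aged mice. The groups were separate but young 2 and aged 1 were close, and the difference was -0.63 (SE 0.24, limma adjusted p = 0.316). Kcnip3, a calcium-binding protein that joins A-type channels, read -1.18, -1.01 and -1.45 in young and -1.58, -1.68 and -1.61 in aged mice. It lay at the edge of the unadjusted threshold, with a difference of -0.41 (SE 0.17, limma adjusted p = 0.346). Kcnab1, a cytoplasmic beta subunit of the Kcna channels, ranged from 2.24 to 3.75 in young and from 2.11 to 4.06 in aged mice, and its relative Kcnab2 was not above background on any array.

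**Figure D3:**
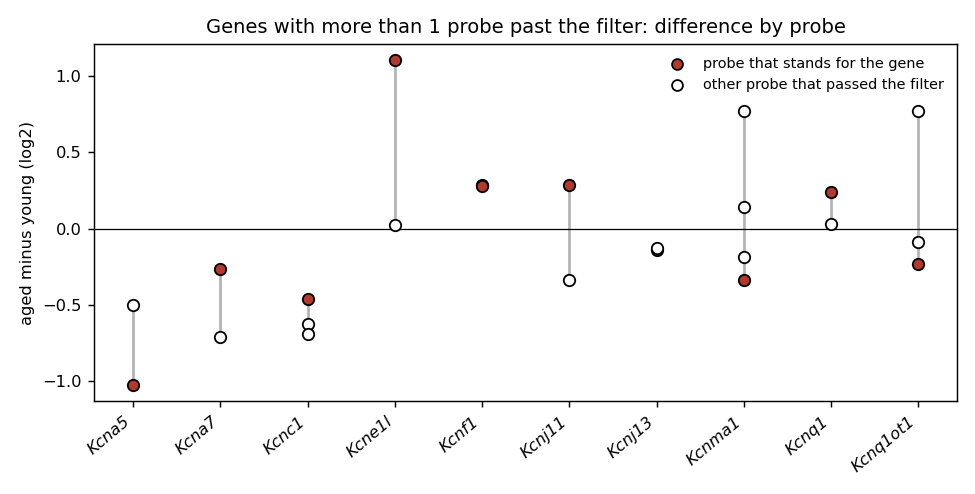
Difference in log2 relative intensity, aged minus young, for each probe of the members with several probes that passed the filter. Filled points stand for the gene, and the probes of 7 genes lie on one side of 0 while those of 3 (Kcnj11, Kcnma1 and Kcnq1ot1) lie on both.

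In all, 10 members had several probes that passed, and in 7 of them the probes had the same sign. Kcnq1ot1, the noncoding RNA transcribed from within Kcnq1, was the only one of 4 noncoding members tested. Its 3 probes that passed differed by -0.23, -0.09 and 0.77, each with overlapping groups.

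**Figure D4:**
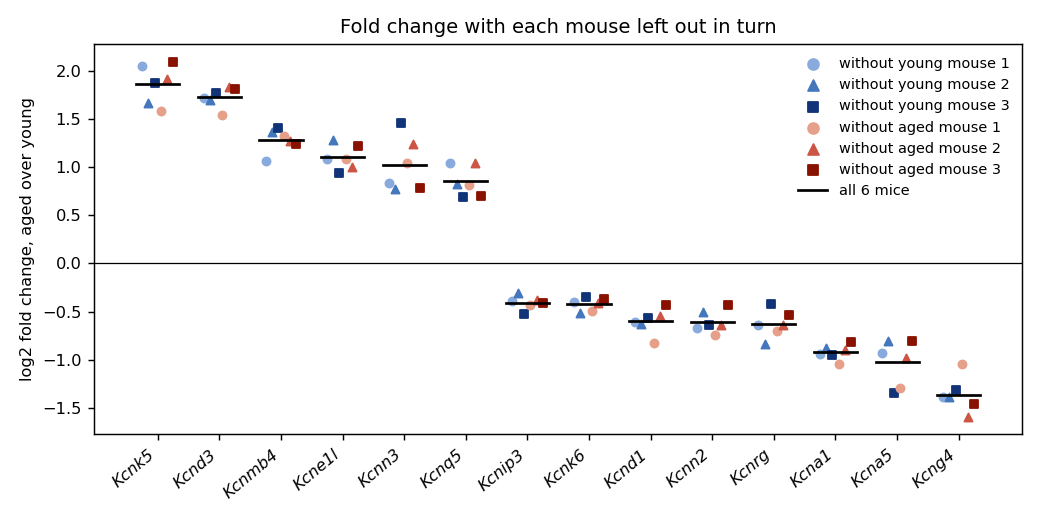
Difference in log2 relative intensity, aged minus young, for the 14 members at an unadjusted p under 0.05, with a line for all 6 mice and a point for each mouse left out in turn. No point crosses 0, and the points spread most for Kcnn3, from 0.77 to 1.46.

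Of the 14 members at an unadjusted p under 0.05, 7 stayed below it whichever mouse was left out. These were Kcnd3, Kcnk5, Kcnmb4, Kcne1l, Kcnq5, Kcng4 and Kcna1. The filter was kept as it was in these fits, so for Kcnd3 and Kcnmb4, which passed it through the aged arrays, this is no sign of stability. Kcnn2 stayed below it in 4 of 6, and the other 6 genes in 1 or 2. Of the 6 fits with a mouse left out, Kcnd3 passed the adjusted threshold in the 1 without aged 1, with a difference of 1.54 and a limma adjusted p of 0.0282. A block for the slide row compares the young mice with the 1 aged mouse of their row. That mouse is aged 1, the array with the brightest negative controls, and a lone mouse has no spread of its own. In that fit Kcnd3 differed by 2.12, Kcnk5 by 2.43, Kcng4 by -2.01 and Kcnd1 by -0.15.

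Groups did not overlap in 15 members. Of these, 5 were higher in every aged mouse, against 7.92% of all genes tested, and 10 were lower, against 13.9%. The 10 lower genes included Kcnh3 and Kcnj13, whose differences were -0.41 and -0.14. Those 15 made up 30.6% of the 49 members, beside 21.8% of all genes. They include Kcnd3 and Kcnmb4, which passed the filter only through the aged arrays, where they are high.

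The 49 members that were not tested were mostly below background. For 33 of them no probe was well above background on any array, among them Kcnh1, Kcnh5, Kcnh6, Kcnh7, Kcnh8, Kcnj1, Kcnj3 to Kcnj6 and Kcnq3, which are better known from brain, heart, kidney or other tissues. The other 16 were well above background on 1 or 2 arrays. Of the untested members, 8 had such a probe on aged 1, the array with the brightest negative controls, against 1 to 3 on each other array, and 5 had it on aged 1 alone. The part of the brighter background in this count was not tested.

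**Figure D5:**
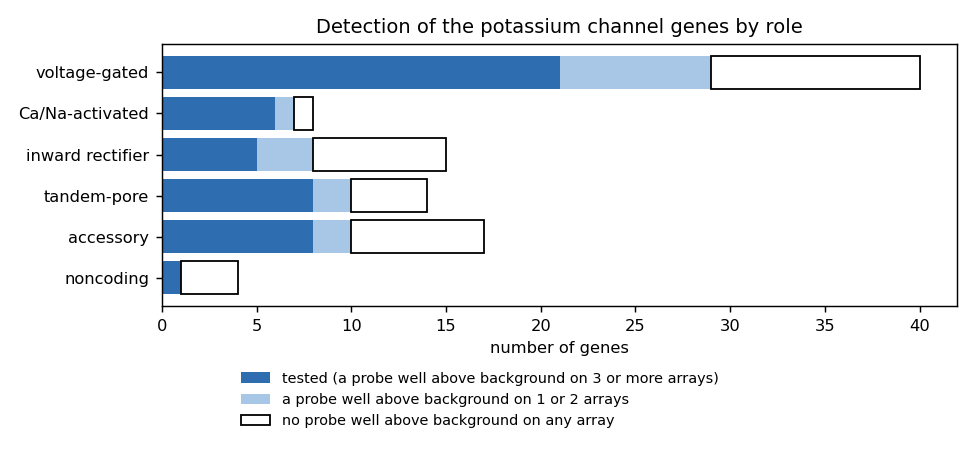
Number of potassium channel genes per role, split by whether the gene was tested, was well above background on too few arrays to be tested, or had no probe well above background on any array. Tested genes are 21 of 40 voltage-gated, 6 of 8 calcium- and sodium-activated, 5 of 15 inward rectifier, 8 of 14 tandem-pore, 8 of 17 accessory and 1 of 4 noncoding.

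Genes of proteins that work with potassium channels but carry other names were taken as a list of 22. Of these, 15 were tested, 3 with a higher mean in aged muscle and 12 with a lower one, and none passed the adjusted threshold. At an unadjusted p under 0.05, 1 was higher and 4 lower, where 6.06% and 8.38% of all genes tested were. Their median difference was -0.38, beside -0.06 over all genes.

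The higher one was Abcc8, 1 of the 2 sulphonylurea receptors that can join Kcnj11 in ATP-sensitive channels. It read 2.56, 2.15 and 2.11 in young and 3.58, 3.18 and 3.21 in aged mice. The groups did not overlap, and the difference was 1.05 (SE 0.20, limma adjusted p = 0.127). Abcc9, the other sulphonylurea receptor, read 4.91 to 5.03 in young and 4.75, 3.98 and 4.68 in aged mice, also without overlap, with a difference of -0.51 and a limma adjusted p of 0.387. The 4 lower genes included Lrrc38, a gamma subunit of the BK channel, at -0.72, and the syntrophin scaffold genes Sntb1 and Sntb2 at -0.96 and -0.38.

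Markers of the cells that whole muscle holds moved with age in some lists. Of 7 genes known to respond to denervation, such as Chrng, Chrna1 and Myog, 6 were higher at an unadjusted p under 0.05. Their summed level, relative to the 75th percentile on the linear scale, was 13.0 to 15.5 in young and 35.3 to 100.1 in aged mice. Of 7 Schwann cell markers, 5 were lower and 1 higher at that p, with a summed level of 24.3 to 44.2 in young and 24.4 to 41.4 in aged mice. Prx, a myelin gene of this list, fell past the adjusted threshold (limma adjusted p = 0.0428). Their part in the differences of Kcna1, of Kcnn3 or of other members was not tested.

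Of 7 markers of vascular smooth muscle and pericytes, 6 had a lower mean in aged muscle and 3 were lower at an unadjusted p under 0.05. The summed level was 47.1 to 55.7 in young and 40.6 to 43.8 in aged mice, so the groups did not overlap. Their part in the values of Kcnj8, Abcc9 and Kcna5, which are known from vessels, was not tested. Of 4 endothelial markers 2 had a higher and 2 a lower mean, and 1, Cdh5, was lower at that p (difference -0.79). Their summed level was 13.3 to 15.7 in young and 9.54 to 11.6 in aged mice, again without overlap. Of 6 macrophage markers 2 were higher at that p, with 37.8 to 45.2 in young and 40.4 to 42.5 in aged mice, and none of the 3 lymphocyte markers tested reached it. The 3 erythrocyte markers were all lower at that p, from 146.4 to 225.5 in young and from 52.7 to 111.5 in aged mice.

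None of the 3 fast and 4 slow fibre markers tested reached an unadjusted p under 0.05, although each had a lower mean in aged muscle. Of the 4 neuronal markers, Snap25 was the only one tested and differed by 0.01, and Nefl and Nefm were not above background on any array.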

How the data were processed

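The deposited files are the Feature Extraction output of 6 arrays. The processed signal is an intensity on a linear scale, from which the authors' software had subtracted background and spatial trends, with no scaling between arrays; the file headers give software version 11.0.1.1 and the submitters' processing notes 9.5. The deposited series matrix held identical values and was not used further. Spots flagged as outliers (161 to 212 per array) were left out, spots of a probe were averaged on the log2 scale, and each array was scaled by subtracting its 75th percentile, which was an intensity of 209.5 to 299.9 on the young and 270.8 to 310.7 on the aged arrays. Of 55681 probes, 12 were left out because all their spots were flagged on some array, none of them a potassium channel probe.

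Gene symbols came from matching accessions, without version, to RefSeq on GRCm38.p6. Where no accession matched, the listed name was matched to a symbol, as for some Kcnq1ot1 probes, among them the one that differed by 0.77. The array was designed on another build, so only the promoter windows carry coordinates. Probes passed if 3 or more of the 6 arrays had them well above background, and the passed probe with the highest mean stood for its gene. The age groups were compared by lmFit and eBayes of limma 3.58.1 (R 4.3.3), and p-values were adjusted by Benjamini-Hochberg, with calls at 0.05. The same code was tested on simulated data. Each mouse is 1 replicate as labelled, and the labels do not say more on how the animals were housed or processed.

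Genes named are the members at an unadjusted p under 0.05, those without overlap and with a difference of at least 1, those well above background on all arrays of 1 group and none of the other, and a set of members known from skeletal muscle. Some genes that met these rules are not reported here, but counts and medians include them. A few others that stood out were chosen after their values were seen: Kcnh3, Kcnj13, Kcnk1, Kcnk9 and Kcnq1ot1, with relatives of named genes. The members and lists were chosen with earlier results of these data known. Alternatives covered the scaling, background correction, filter, choice of probe, variance model, blocks and each mouse left out.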

Additional observations from a re-analysis of the deposited data

How the results depend on the processing

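Over 17 alternatives, among them the 75th percentile taken over probes detected on all arrays, 20 of the 25 tested genes named for p, detection or role kept their direction. The others had small differences and changed sign in some: Kcna7 (0.50 with the slide row as a block, -0.96 to 0.22 with 1 mouse left out), Kcnab1 (0.0074 scaled on detected probes, 0.0029 with quantile normalization, -0.55 to 0.43 with 1 mouse left out), Kcnj11 (-0.026 as a mean of probes, -0.073 to 0.65 with 1 mouse left out), Kcnj2 (0.028 scaled on detected probes, 0.49 with the row block, -0.26 to 0.32 with 1 mouse left out) and Kcnma1 (0.097 as a mean of probes, 0.27 with the row block). The cause was not tested. Some alternatives could not change a direction. The variance model and the replicate block leave the fitted difference as it was, as do filter changes that keep the same probe. The genes named for p or detection were also chosen on these same data, and Kcnd3 and Kcnmb4 passed the filter through the aged arrays. The number of genes that kept their direction is therefore no measure of stability.

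The 1 potassium channel gene past the threshold became 0 with normexp, without a filter, with a filter on all 6 arrays, under which Kcnd3 could not be tested, with a mean-variance trend and with a replicate block, and 0 to 1 with 1 mouse left out. Over all genes the count of 53 became 8 without a filter, 35 with the filter on all 6 arrays, 5 with the replicate block, and 1 to 199 with 1 mouse left out, 1 without aged 3 and 199 without aged 1. The 14 members at an unadjusted p under 0.05 became 9 to 17 with 1 mouse left out, 9 without young 1 or aged 3. The 5 partner genes became 3 with the row block and 3 to 5 with 1 mouse left out, 3 without young 1, young 2 or aged 2. Replicate numbers only name mice: same-numbered mice deviated together with correlations of -0.063, -0.271 and 0.028, and with the replicate block the adjusted p of Kcnd3 was 0.115.

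Scaling to the median moved the median of all genes from -0.06 to -0.21 and the split of members at an unadjusted p under 0.05 from 6 higher and 8 lower to 4 and 10. That split was 6 and 5 when scaled on detected probes, where the median of all genes was -0.03. With quantile normalization it was 5 and 10, with a median of all genes of -0.05. The share of all genes at that p under these scalings is not given here. A shift of the members therefore cannot be told from a shift of all genes. With the row block, 24 of 49 members had a lower mean. Signals near background limit Kcnd3, Kcnmb4, Kcnk5 and Kcnn3, among others.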
